A study of Mus musculus with 6 samples.

Results

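Immediate early genes are switched on within minutes of a signal that reaches the MAP kinases, without new protein synthesis, and many of their products then act back on the same kinases. The set described here holds 50 such genes and their feedback partners, picked by symbol from a table of 16171 genes: the Egr, Nr4a and Etv transcription factors, the Ier genes and other small early response genes, the dual-specificity phosphatases, the Sprouty and Spred inhibitors, the Gadd45 proteins, a pair of polo-like kinases, and 8 genes of the kinase relay itself and its nuclear partners Srf and Elk1. All 50 were found, and 48 passed the filter on low counts (Spry1 and Spry4 did not). The RNA came from Raw264.7 cells, a wild-type mouse macrophage line, grown on 1 of 2 titanium surfaces: titanate nanowires made by alkaline heat treatment (TH, the control, 3 libraries) or a calcium phosphate nanowire coating (THCaP, 3 libraries). On both surfaces the cells had 12 h to attach, were given lipopolysaccharide (LPS, a bacterial product that activates macrophages) at 1 µg/mL for 2 h, and were harvested after a further 1 d. The comparison asks how the coating alters macrophage gene expression. Since all 6 libraries had LPS, levels without it were not analysed here.

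In macrophages, LPS acts through Toll-like receptor 4 on the kinase Map3k8 (TPL2), which activates Map2k1 and the ERK kinases, and in parallel on the p38 and JNK kinases. These kinases phosphorylate factors such as Elk1, which sits with Srf on CArG boxes in promoters of early genes. Dual-specificity phosphatases remove the activating phosphates from MAP kinases, Sprouty and Spred proteins act upstream at the level of Ras and Raf, and Zfp36 shortens the life of inflammatory mRNAs.

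Libraries are called TH-1 to TH-3 and THCaP-1 to THCaP-3, and values of single libraries are given in that order. Group values are means ± SD, n = 3. Library totals ran from 28000099 to 30317108 counts, so that a count of 0 allows up to 0.107 CPM (3 counts per library; CPM are counts scaled to library size with TMM factors, which correct for a library's make-up; the limit covers counting error only). Macrophage markers were present at a summed 3430 to 4030 CPM on TH and 3600 to 3750 CPM on THCaP (12 of 12 detected). Mertk among them was scarce, at a mean of 0.364 CPM, below the endothelial marker Vwf (0.768 CPM). Of these 12, Lyz2 rose, from 112 ± 14.2 to 174 ± 40.1 CPM (edgeR adjusted p = 0.0223), and the other 11 were not called. All THCaP libraries were above all TH libraries for Lyz2 and Csf1r, and below them for Cd68, Cd14 and Ptprc. Fibroblast and bone markers summed to at most 1.4 CPM, endothelial markers to at most 1.01 CPM, T and B cell markers to at most 0.736 CPM and neutrophil markers to at most 0.0360 CPM in a library. No count, or no row, was found for 2 of 8, 0 of 4, 2 of 8 and 2 of 5 genes of these lists, Thy1 and S100a8 among them. In every list the ranges of the sums on the 2 surfaces overlapped. THCaP-3 lay nearest to TH on the first principal component (5.17, against 19.3 and 35.9 for THCaP-1 and THCaP-2 and −22.2 to −16.3 for TH). TH-1 differed more from TH-2 and TH-3 (chi-square per degree of freedom 26.6 and 24.1) than these did from each other (3.84). The largest such value within a surface was that of THCaP-2 against THCaP-3 (48.4), and THCaP-1 gave 15.7 and 12.5 against them.

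Most of the set stood lower on THCaP. Of the 48 tested members 25 fell, 1 rose and 22 were not called at an edgeR adjusted p under 0.05, where 12.0% of all 11480 tested genes were lower and 11.6% higher. The median log2 fold change (THCaP over TH) was −0.40 over the members and 0.0064 over all tested genes, and 43 of the 48 values were negative. A decrease of at least 2-fold was called in 7 members (Plk2, Etv4, Dusp5, Phlda1, Nr4a3, Dusp4 and Dusp8) and in 1.25% of all tested genes. In 31 members all 3 THCaP libraries lay below all 3 TH libraries, which held for 21.3% of all genes. In 2 members (Mapk14 and Elk1) they lay above, which held for 22.1%. These counts rest on CPM with TMM factors, and some of the 31, Mapk3 and Map2k1 among them, overlapped without these factors. In bulk RNA, a change in every cell and a change in the share of cells that express a gene cannot be told apart. The number of members that fell was 15 without TH-3 (of 48, with 490 of 11577 genes lower in all) and 32 without THCaP-3 (2020 of 11585 genes). Scaled by library totals alone, 23 members fell and 1 rose, while over all genes the split moved to 1063 lower and 1904 higher from 1376 and 1333.

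**Figure D1:**
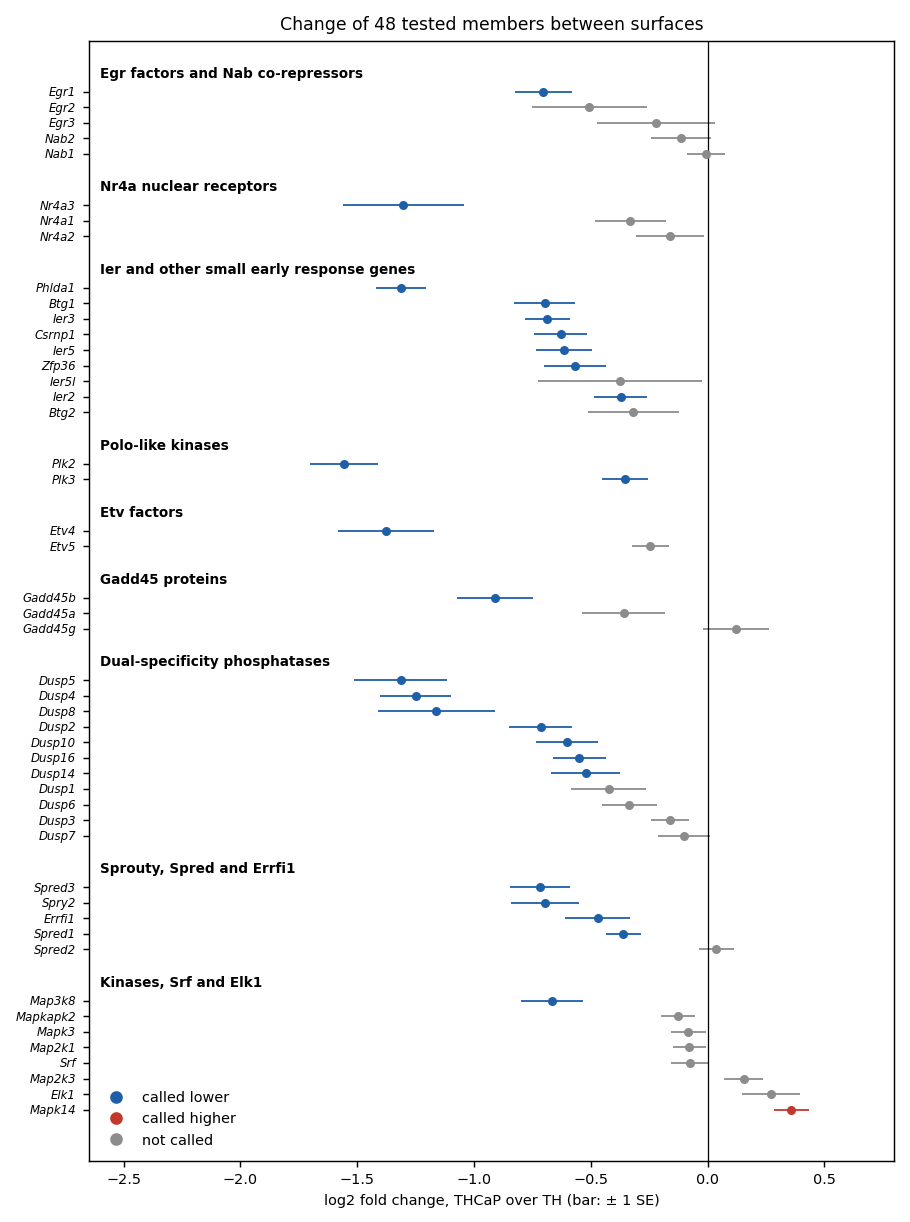
Log2 fold change of each of the 48 tested members (x axis, THCaP over TH, point with a bar of 1 SE), grouped by family, blue for genes called lower, red for the gene called higher and grey for those not called. The points of 43 members lie left of 0, from −1.56 for Plk2, and the kinases Mapkapk2, Mapk3 and Map2k1 lie near 0.

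The divisions of the set differed in how many members fell, a difference that was not tested. Of the 40 tested members outside the kinase relay, 24 fell and the others were not called (median −0.51). Of the 8 genes of the relay with Srf and Elk1, 1 fell and 1 rose (median −0.077). These relay shares were near the 12.0% lower and 11.6% higher over all tested genes, beside which the family counts are also read. By family, 7 of 11 dual-specificity phosphatases, 7 of 9 Ier and other small early response genes and 4 of 5 Sprouty, Spred and Errfi1 genes fell. So did 2 of 2 polo-like kinases, 1 of 3 Egr factors, 1 of 3 Nr4a receptors, 1 of 2 Etv factors and 1 of 3 Gadd45 genes. Families of 2 or 3 genes are too small to give a share.

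Promoters were compared because Srf, Creb and Egr proteins are the textbook regulators of early genes. RefSeq promoter sequences (build GRCm38.p6, 250 bases before to 50 after each start) were at hand for 41 of the 50 members. A CArG box (both strands) was found in promoters of 4 of these 41 genes (Egr2, Zfp36, Dusp5 and Srf), against 1.63% of all 32851 promoters in the table and 1.51% of 9230 tested genes. The full cyclic AMP response element TGACGTCA was found in 5 (Btg2, Plk2, Dusp1, Dusp8 and Errfi1), against 1.79% of promoters and 3.72% of tested genes, and the shorter TGACGT, which the full element contains, in 12 (7.51% and 13.7%). The Egr site GCGNGGGCG was in 9 (5.55% and 12.1%), the AP-1 site TGANTCA in 1 (Csrnp1; 7.81% and 6%) and a κB site in 3 (4.51% and 6.10%). Of the 19 members with a promoter that fell, 2 held a CArG box, 3 the full element and 4 an Egr site. Of the 21 that were tested and did not fall, 2, 2 and 5 did. No promoter was at hand for 9 members, which are in neither count. Of these 9, Egr1, Ier2, Phlda1, Dusp4, Etv4 and Map3k8 fell, Egr3 and Mapk3 were not called and Spry4 was not tested. A match describes letters and not binding. Shown are the 200 bases before the start for 6 genes, a CArG or full-element promoter of members that fell (Dusp5, Zfp36, Plk2, Dusp8) beside those of 2 that were not called (Srf, Dusp1). The windows are Dusp5 (chr19:53528945-53529144, plus strand), Zfp36 (chr7:28379229-28379428, minus strand), Srf (chr17:46556163-46556362, minus strand), Plk2 (chr13:110394844-110395043, plus strand), Dusp8 (chr7:142095285-142095484, minus strand) and Dusp1 (chr17:26508473-26508672, minus strand). They are written 5′ to 3′ in the direction of transcription, with every match to these motifs in capitals. Bases just after the start were found in GENCODE transcripts of the same gene for all but Dusp8, whose positions rest on the RefSeq start alone.
Dusp5: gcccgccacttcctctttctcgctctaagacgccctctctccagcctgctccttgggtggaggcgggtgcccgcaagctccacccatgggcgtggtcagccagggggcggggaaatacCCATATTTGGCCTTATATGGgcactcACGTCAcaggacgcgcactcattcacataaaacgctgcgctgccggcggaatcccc
Zfp36: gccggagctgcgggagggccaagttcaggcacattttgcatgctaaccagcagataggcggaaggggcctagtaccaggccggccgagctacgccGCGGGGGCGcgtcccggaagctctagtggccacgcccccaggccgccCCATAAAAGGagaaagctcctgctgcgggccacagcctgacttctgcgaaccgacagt
Srf: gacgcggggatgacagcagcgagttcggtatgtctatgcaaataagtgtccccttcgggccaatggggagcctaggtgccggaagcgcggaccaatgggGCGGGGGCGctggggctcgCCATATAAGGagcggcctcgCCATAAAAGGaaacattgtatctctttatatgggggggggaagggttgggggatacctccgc
Plk2: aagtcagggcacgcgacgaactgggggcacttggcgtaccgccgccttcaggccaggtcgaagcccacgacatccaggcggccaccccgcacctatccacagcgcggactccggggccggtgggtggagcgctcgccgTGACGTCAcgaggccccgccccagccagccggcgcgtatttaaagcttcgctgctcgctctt
Dusp8: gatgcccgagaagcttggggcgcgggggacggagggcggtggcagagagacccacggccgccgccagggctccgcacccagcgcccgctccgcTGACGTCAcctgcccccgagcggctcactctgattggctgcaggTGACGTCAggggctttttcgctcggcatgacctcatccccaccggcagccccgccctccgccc
Dusp1: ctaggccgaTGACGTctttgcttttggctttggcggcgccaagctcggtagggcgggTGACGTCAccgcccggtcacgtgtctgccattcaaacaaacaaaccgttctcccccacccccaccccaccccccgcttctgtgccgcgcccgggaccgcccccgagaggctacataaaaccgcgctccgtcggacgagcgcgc

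Dusp5 carries adjoining CArG boxes at −82 to −73 and −72 to −63 from the start and TGACGT on the other strand just behind them, at −56 to −51. Srf, which was not called, carries 2 CArG boxes as well, at −82 to −73 and −62 to −53. The full element lies at −62 to −55 in Plk2, in 2 copies in Dusp8 at −107 to −100 and −63 to −56, and at −143 to −136 in Dusp1.

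**Figure D2:**
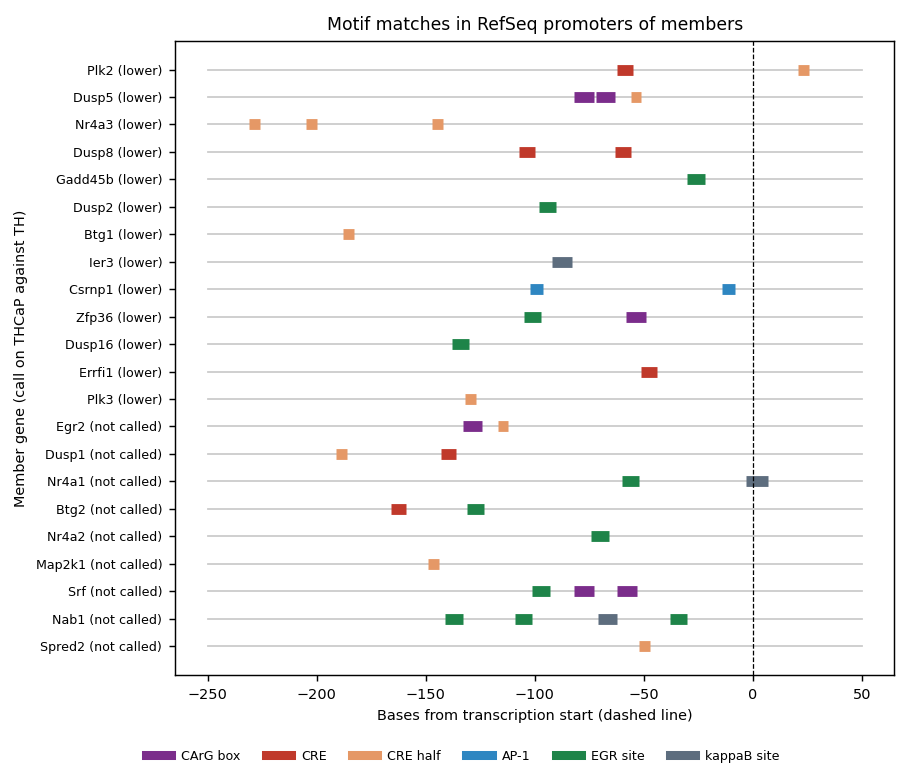
Position of motif matches (coloured bars, on either strand) in bases from the transcription start (x axis, dashed line at the start) for the 22 members with a match, members called lower at the top; 1 promoter is drawn per gene. CArG boxes and full cyclic AMP response elements lie within 170 bases before the start in members that fell and in members that were not called.

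The largest decrease among the members was in Plk2, a polo-like kinase that is induced early and acts in stress checkpoints. It stood at 161, 173 and 187 CPM on TH and 60.4, 45.4 and 71.3 CPM on THCaP. Each TH library held more than 2 times the level of any THCaP library. Plk2 fell 2.94-fold (log2 fold change −1.56 with SE 0.15, edgeR adjusted p = 0.000873). Its relative Plk3 stood at 52.0, 43.6 and 51.5 CPM on TH and 37.4, 36.0 and 41.8 CPM on THCaP. Plk3 fell 1.28-fold without overlap between surfaces (log2 fold change −0.35 with SE 0.10, edgeR adjusted p = 0.0333). This call did not hold without TH-1, TH-3, THCaP-1 or THCaP-2 (edgeR adjusted p = 0.0737, 0.125, 0.126 and 0.0723). On GRCm38, Plk2 is a protein-coding gene on chromosome 13 at 110395046 to 110400844.

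Of the 11 dual-specificity phosphatases 7 fell, beside 12.0% of all tested genes. In 9 all THCaP libraries lay below all TH libraries in CPM, which held for 21.3% of all tested genes. Of the 4 nuclear, inducible ones 3 fell. Dusp5, which binds and inactivates ERK in the nucleus, was at 126, 80.1 and 98.2 CPM on TH and 41.9, 30.2 and 50.4 CPM on THCaP. All THCaP libraries were below all TH libraries, with TH-1 the highest of all. The fall was 2.49-fold (log2 fold change −1.31 with SE 0.20, edgeR adjusted p = 0.00465). Dusp4, a nuclear phosphatase of ERK, JNK and p38, stood at 178, 227 and 255 CPM on TH and 93.0, 76.9 and 108 CPM on THCaP. Here TH-1 was the lowest TH library and still above every THCaP library. The fall was 2.38-fold (log2 fold change −1.25 with SE 0.15, edgeR adjusted p = 0.00258). Dusp2 (PAC-1), a nuclear phosphatase of blood cells, stood at 152, 117 and 116 CPM on TH and 77.4, 67.2 and 90.3 CPM on THCaP. It fell 1.64-fold (log2 fold change −0.71 with SE 0.14, edgeR adjusted p = 0.0089). Dusp1 (MKP-1), the main brake on p38 and JNK after LPS, was at 247, 182 and 211 CPM on TH and 159, 124 and 194 CPM on THCaP. For Dusp1, THCaP-3 lay inside the TH range. The gene was not called (log2 fold change −0.42 with SE 0.16, edgeR adjusted p = 0.0803). Leaving out a library moved the edgeR adjusted p to 0.00732 (THCaP-3) or as high as 0.226 (TH-1).

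Phosphatases that prefer JNK and p38 fell in 3 of 3 cases, beside 12.0% of all tested genes, but each call was lost without some single library. Dusp8 stood at 7.59, 10.2 and 9.64 CPM on TH and 4.03, 2.61 and 5.63 CPM on THCaP. It fell 2.24-fold at a low level (log2 fold change −1.16 with SE 0.25, edgeR adjusted p = 0.0136). This call did not hold without TH-2, TH-3 or THCaP-1 (edgeR adjusted p = 0.0569, 0.0518 and 0.051). Dusp10 (MKP-5) averaged 10.7 ± 0.253 CPM on TH and 7.03 ± 0.843 CPM on THCaP and fell 1.52-fold (log2 fold change −0.60 with SE 0.13, edgeR adjusted p = 0.0147). Dusp16 (MKP-7) averaged 61.4 ± 8.01 CPM on TH and 42.0 ± 3.46 CPM on THCaP and fell 1.46-fold (log2 fold change −0.55 with SE 0.11, edgeR adjusted p = 0.0112). In both, the surfaces did not overlap. The call of Dusp10 did not hold without TH-2, TH-3 or THCaP-1 (edgeR adjusted p = 0.0599, 0.0533 and 0.051). That of Dusp16 did not hold without TH-2 or TH-3 (edgeR adjusted p = 0.0546 and 0.0531). The cytoplasmic ERK phosphatases Dusp6 and Dusp7 were not called. Dusp6 (MKP-3) averaged 60.5 ± 3.77 CPM on TH and 48.02 ± 7.57 CPM on THCaP. Its log2 fold change was −0.33 with SE 0.12 (edgeR adjusted p = 0.0635, 0.0128 without THCaP-3 and 0.18 without TH-3). Dusp7 averaged 37.6 ± 2.39 CPM on TH and 35.1 ± 4.68 CPM on THCaP (log2 fold change −0.10 with SE 0.11, edgeR adjusted p = 0.528). Of the small phosphatases, Dusp14 averaged 15.4 ± 1.83 CPM on TH and 10.8 ± 1.78 CPM on THCaP and fell 1.44-fold (log2 fold change −0.52 with SE 0.15, edgeR adjusted p = 0.033). This call did not hold without TH-2, TH-3, THCaP-1 or THCaP-2 (edgeR adjusted p = 0.124, 0.0979, 0.113 and 0.0731). Dusp3 (VHR) stood at 142, 144 and 149 CPM on TH and 130.4, 119 and 139 CPM on THCaP. It was not called (log2 fold change −0.16 with SE 0.08, edgeR adjusted p = 0.176) although its THCaP libraries were all below its TH libraries. These location and substrate classes are textbook ones, hold 2 to 4 genes each and were applied after the values were seen. Differences between the classes were not tested.

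Per gene length, Dusp1 led the family at a mean of 95.8 FPKM over all 6 libraries (fragments scaled for gene length and library size). Of Dusp4 and Dusp2, which came next, Dusp4 had the higher mean on TH (89.1 FPKM, Dusp2 78.0 FPKM) and Dusp2 the higher mean on THCaP (49.3 FPKM, Dusp4 38.9 FPKM). The libraries of Dusp2 and Dusp4 overlapped on each surface. The order of the means of Dusp5 and Dusp3 turned likewise, with Dusp5 higher on TH (54.9 FPKM, Dusp3 31.9 FPKM) and Dusp3 higher on THCaP (29.6 FPKM, Dusp5 22.9 FPKM). The libraries of Dusp5 and Dusp3 overlapped on THCaP but not on TH. Dusp8 and Dusp10 were lowest at 1.20 and 1.15 FPKM. On TH the means of Dusp1 and Dusp4 were 108 ± 16.8 and 89.1 ± 15.2 FPKM, and their ranges met. On THCaP they were 83.6 ± 18.5 and 38.9 ± 6.63 FPKM (mean ± SD, n = 3 each), with no library of Dusp4 reaching one of Dusp1. The 11 phosphatase genes summed to 439, 379 and 414 FPKM on TH and 266, 217 and 308 FPKM on THCaP. In FPKM, which carry no TMM factor, the surfaces overlapped in Dusp3 and Dusp6, although they did not in CPM.

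**Figure D3:**
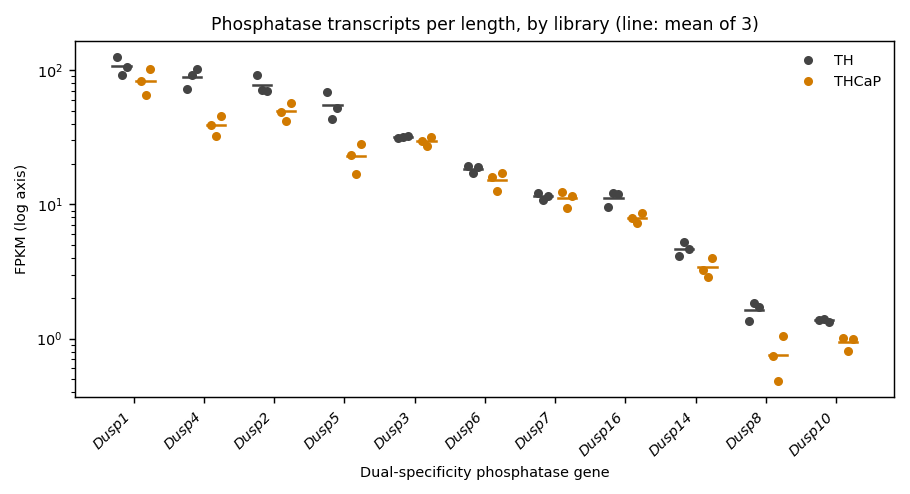
FPKM of the 11 dual-specificity phosphatase genes (log y axis) in each TH library (dark points) and THCaP library (orange points), with a line at the mean of 3, ordered by mean level over all 6 libraries. Dusp4 and Dusp5 show separate clouds for the surfaces, while the points of Dusp1 and Dusp7 overlap.

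Sprouty and Spred proteins dampen Ras to ERK signalling. Spred3 stood at 41.6, 47.1 and 46.3 CPM on TH and 27.1, 22.5 and 32.5 CPM on THCaP. It fell 1.65-fold (log2 fold change −0.72 with SE 0.13, edgeR adjusted p = 0.00771). Spred1, which recruits the Ras inactivator neurofibromin, was the Spred gene with most reads, at 792, 802 and 849 CPM on TH and 641, 604 and 657 CPM on THCaP. Its fall was small but without overlap between surfaces (1.28-fold; log2 fold change −0.36 with SE 0.07, edgeR adjusted p = 0.0116). The call did not hold without TH-3 or THCaP-1 (edgeR adjusted p = 0.0692 and 0.0631). Spred2 stood at 84.1, 91.4 and 91.7 CPM on TH and 94.8, 90.6 and 88.9 CPM on THCaP. The surfaces overlapped, and Spred2 was not called (log2 fold change 0.038 with SE 0.08, edgeR adjusted p = 0.741). The gene length that the files imply for Spred2 is 37937 bases, against 1081 to 10374 bases for the other members, so its FPKM is not comparable with theirs.

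Among the Sprouty genes, Spry2 had enough reads to test, at 8.79, 9.84 and 10.5 CPM on TH and 6.76, 5.32 and 5.90 CPM on THCaP. It fell 1.62-fold (log2 fold change −0.70 with SE 0.14, edgeR adjusted p = 0.0119). Its call did not hold without TH-2 or TH-3 (edgeR adjusted p = 0.0514 and 0.0583). The reads of Spry1 came to 15 for TH and 21 for THCaP, and those of Spry4 to 10 and 2, too few to compare. Errfi1 (MIG-6), an early gene whose product inhibits the epidermal growth factor receptor, stood at 31.2, 41.1 and 39.0 CPM on TH and 26.4, 22.8 and 31.1 CPM on THCaP. Errfi1 fell 1.39-fold (log2 fold change −0.47 with SE 0.14, edgeR adjusted p = 0.0368), and every TH library was above every THCaP library. The gap between TH-1 and THCaP-3 was the narrowest. The call did not hold without TH-2, TH-3, THCaP-1 or THCaP-2 (edgeR adjusted p = 0.135, 0.121, 0.112 and 0.0792).

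Etv4 and Etv5 are ETS transcription factors whose mRNAs follow ERK activity in many cells. Etv4 stood at 8.79, 7.75 and 7.20 CPM on TH and 2.91, 2.31 and 3.92 CPM on THCaP. This was a 2.60-fold fall at a low level (log2 fold change −1.38 with SE 0.20, edgeR adjusted p = 0.00454). Etv5 was at 68.9, 69.8 and 73.8 CPM on TH and 60.2, 63.2 and 55.9 CPM on THCaP. Its THCaP libraries were all below its TH libraries, yet the adjusted p lay just above the threshold. The log2 fold change was −0.25 with SE 0.08 (edgeR adjusted p = 0.0517, 0.0443 without THCaP-2 and 0.19 without TH-3).

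Of the Egr zinc finger factors, Egr1 was the most abundant, at 633, 586 and 669.7 CPM on TH and 404, 314 and 442 CPM on THCaP. Every THCaP library was lower than every TH library, and Egr1 fell 1.63-fold (log2 fold change −0.70 with SE 0.12, edgeR adjusted p = 0.00743). Egr2 stood at 109, 62.7 and 69.9 CPM on TH and 57.4, 38.4 and 74.0 CPM on THCaP. In Egr2, TH-1 was the highest library and THCaP-3 was above TH-2 and TH-3. The gene was not called (log2 fold change −0.51 with SE 0.25, edgeR adjusted p = 0.156, 0.0457 without THCaP-3 and 0.497 without TH-1). Egr3 averaged 58.1 ± 19.4 CPM on TH and 49.98 ± 14.6 CPM on THCaP, with overlapping libraries (log2 fold change −0.22 with SE 0.25, edgeR adjusted p = 0.548). The Egr co-repressors were not called. Nab1 stood at 131, 127 and 134 CPM on TH and 127, 140.4 and 122 CPM on THCaP (log2 fold change −0.0080 with SE 0.08, edgeR adjusted p = 0.952), and Nab2 averaged 40.6 ± 8.02 CPM on TH and 37.5 ± 0.510 CPM on THCaP (log2 fold change −0.11 with SE 0.13, edgeR adjusted p = 0.537).

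Nr4a1 (Nur77), Nr4a2 (Nurr1) and Nr4a3 (Nor1) are orphan nuclear receptors that LPS induces in macrophages. Nr4a1 stood at 213, 163 and 174 CPM on TH and 146, 116 and 176 CPM on THCaP. THCaP-3 was above TH-2 and TH-3, and Nr4a1 was not called. Its log2 fold change was −0.33 with SE 0.15 (edgeR adjusted p = 0.134, 0.0144 without THCaP-3 and 0.345 without TH-1). Nr4a2 was at 150.4, 137 and 145 CPM on TH and 131, 98.7 and 157 CPM on THCaP, with THCaP-3 the highest of all. It was not called (log2 fold change −0.16 with SE 0.14, edgeR adjusted p = 0.433, 0.0457 without THCaP-3 and 0.997 without THCaP-2). Nr4a3, by far the least abundant of the family, was at 2.57, 4.29 and 3.12 CPM on TH and 1.23, 1.20 and 1.60 CPM on THCaP. It fell 2.47-fold (log2 fold change −1.30 with SE 0.26, edgeR adjusted p = 0.0105), on 283 reads in the TH libraries and 118 in the THCaP libraries.

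Of the 9 Ier and other small early response genes 7 fell, beside 12.0% of all tested genes, and Btg2 and Ier5l were not called. Phlda1, a pleckstrin homology domain protein induced by ERK, stood at 19.9, 21.8 and 22.7 CPM on TH and 8.51, 8.40 and 9.03 CPM on THCaP. The replicates of each surface were close together, and Phlda1 fell 2.48-fold (log2 fold change −1.31 with SE 0.11, edgeR adjusted p = 0.000675). Btg1, an antiproliferative protein that recruits the deadenylase complex, stood at 977, 864 and 927 CPM on TH and 571, 458 and 677 CPM on THCaP. It fell 1.62-fold (log2 fold change −0.70 with SE 0.13, edgeR adjusted p = 0.00835). Ier3 (IEX-1), which prolongs ERK activity and is also an NF-κB target, was at 319, 291 and 320.2 CPM on TH and 192, 172 and 215 CPM on THCaP. It fell 1.61-fold (log2 fold change −0.69 with SE 0.10, edgeR adjusted p = 0.00369). Csrnp1, a nuclear protein induced by Axin1, stood at 259, 248 and 257 CPM on TH and 167, 136 and 191 CPM on THCaP. It fell 1.55-fold (log2 fold change −0.63 with SE 0.11, edgeR adjusted p = 0.00799). In each of these 4 genes no THCaP library reached a TH library.

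Ier5 averaged 341 ± 23.7 CPM on TH and 222 ± 38.1 CPM on THCaP and fell 1.53-fold (log2 fold change −0.62 with SE 0.12, edgeR adjusted p = 0.00964). Zfp36 (tristetraprolin), which binds AU-rich elements and hastens decay of Tnf and other mRNAs, averaged 438 ± 44.3 CPM on TH and 296 ± 54.0 CPM on THCaP and fell 1.48-fold (log2 fold change −0.57 with SE 0.13, edgeR adjusted p = 0.0177). Its call did not hold without TH-1, TH-2 or THCaP-1 (edgeR adjusted p = 0.0523, 0.0555 and 0.0623). Ier2 averaged 212 ± 28.3 CPM on TH and 164 ± 16.0 CPM on THCaP and fell 1.29-fold (log2 fold change −0.37 with SE 0.11, edgeR adjusted p = 0.0405). This call did not hold without TH-1, TH-3, THCaP-1 or THCaP-2 (edgeR adjusted p = 0.0933, 0.112, 0.127 and 0.0863). Btg2, the relative of Btg1, stood at 348, 271 and 306 CPM on TH and 243, 173 and 326 CPM on THCaP. In Btg2, THCaP-3 lay above TH-2 and TH-3. The gene was not called (log2 fold change −0.32 with SE 0.19, edgeR adjusted p = 0.249, 0.0108 without THCaP-3 and 0.59 without THCaP-2). Ier5l was at 1.74, 1.48 and 3.55 CPM on TH and 2.21, 1.44 and 1.57 CPM on THCaP, with TH-3 alone high. It was not called (log2 fold change −0.37 with SE 0.35, edgeR adjusted p = 0.454). Per length, Ier3 (229.8 FPKM) and Zfp36 (207 FPKM) exceeded Egr1 (165 FPKM) and Btg1 (148 FPKM) in the mean of 6 libraries.

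Gadd45 proteins bind and activate the p38 and JNK kinase Map3k4 and act in growth arrest. Gadd45b, the form that NF-κB induces, stood at 33.2, 43.6 and 45.1 CPM on TH and 21.0, 17.6 and 26.4 CPM on THCaP. It fell 1.88-fold with no overlap (log2 fold change −0.91 with SE 0.16, edgeR adjusted p = 0.00753). Gadd45a, a p53 target, was at 5.88, 7.14 and 6.88 CPM on TH and 4.24, 5.05 and 6.20 CPM on THCaP, and the surfaces overlapped. It was not called (log2 fold change −0.36 with SE 0.18, edgeR adjusted p = 0.161, 0.0487 without THCaP-3 and 0.452 without THCaP-1). Gadd45g was at 9.86, 8.69 and 10.8 CPM on TH and 10.99, 9.17 and 11.8 CPM on THCaP, with both surfaces over much the same range. It was not called (log2 fold change 0.12 with SE 0.14, edgeR adjusted p = 0.549).

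Of the 6 kinases in the set, Map3k8 fell, Mapk14 rose and the other 4 were not called. Map3k8, the kinase that carries the LPS signal to ERK, stood at 25.4, 32.4 and 33.8 CPM on TH and 19.6, 16.8 and 21.3 CPM on THCaP. It fell 1.59-fold with all THCaP libraries below all TH libraries (log2 fold change −0.67 with SE 0.13, edgeR adjusted p = 0.0106). This call did not hold without TH-2 or TH-3 (edgeR adjusted p = 0.0506 and 0.05). Mapk14 (p38α) was the member that rose, at 143, 133 and 137 CPM on TH and 179, 182 and 167 CPM on THCaP. The increase was 1.28-fold (log2 fold change 0.36 with SE 0.08, edgeR adjusted p = 0.0128). The call did not hold without TH-2, TH-3 or THCaP-1 (edgeR adjusted p = 0.067, 0.0654 and 0.0723). Mapk14 lies on chromosome 17 at 28691329 to 28748406 (GRCm38, protein coding).

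Mapkapk2 (MK2), the p38 substrate that controls Zfp36, had the highest read level of the members on both surfaces, at 1329, 1248 and 1264 CPM on TH and 1133, 1193 and 1192 CPM on THCaP (log2 fold change −0.13 with SE 0.07, edgeR adjusted p = 0.215). Map2k1 (MEK1) stood at 251, 244 and 247 CPM on TH and 229.7, 242 and 232 CPM on THCaP (log2 fold change −0.079 with SE 0.07, edgeR adjusted p = 0.438). In both, the THCaP libraries were just below the TH libraries in CPM and the gene was not called. The surfaces overlapped for Map2k1 in FPKM. Mapk3 (ERK1) averaged 126 ± 3.15 CPM on TH and 119 ± 5.01 CPM on THCaP (log2 fold change −0.082 with SE 0.07, edgeR adjusted p = 0.436). Map2k3 (MKK3), which activates p38, averaged 98.0 ± 4.14 CPM on TH and 109 ± 8.27 CPM on THCaP (log2 fold change 0.16 with SE 0.08, edgeR adjusted p = 0.193). Srf averaged 149 ± 11.9 CPM on TH and 141 ± 2.78 CPM on THCaP (log2 fold change −0.076 with SE 0.08, edgeR adjusted p = 0.518). Elk1, its ETS partner, averaged 21.1 ± 3.37 CPM on TH and 25.4 ± 1.22 CPM on THCaP (log2 fold change 0.27 with SE 0.12, edgeR adjusted p = 0.136). Mapk3, Map2k3, Srf and Elk1 were not called, although every THCaP library of Elk1 was above every TH library.

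The THCaP libraries ranked the members unevenly. THCaP-3 was the highest THCaP library in 33 of 48 members (68.8%, against 41.1% of all tested genes) and THCaP-2 the lowest in 37 (77.1%, against 41.2%). The median deviation of the members from their mean over the 6 libraries was 0.24, 0.13 and 0.23 on the log2 scale on TH and −0.19, −0.48 and −0.054 on THCaP. TH-1 was the highest TH library in 24 of 48 members (50%, against 43.0% of all tested genes) and the lowest in 18 (37.5%, against 40.8%). These shares were near those of all genes. Egr2, Egr3, Nr4a1, Nr4a2, Ier2, Btg2, Dusp1, Dusp2 and Dusp5 were among the 24, and Plk2, Dusp4, Dusp8, Dusp16, Gadd45b, Errfi1, Spry2 and Map3k8 among the 18. With TH-1 and THCaP-3 both left out, an alternative chosen after seeing the data, 33 members fell and 2 rose (Mapk14 and Map2k3). Over all tested genes 5207 were then called, of which 2582 were lower.

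**Figure D4:**
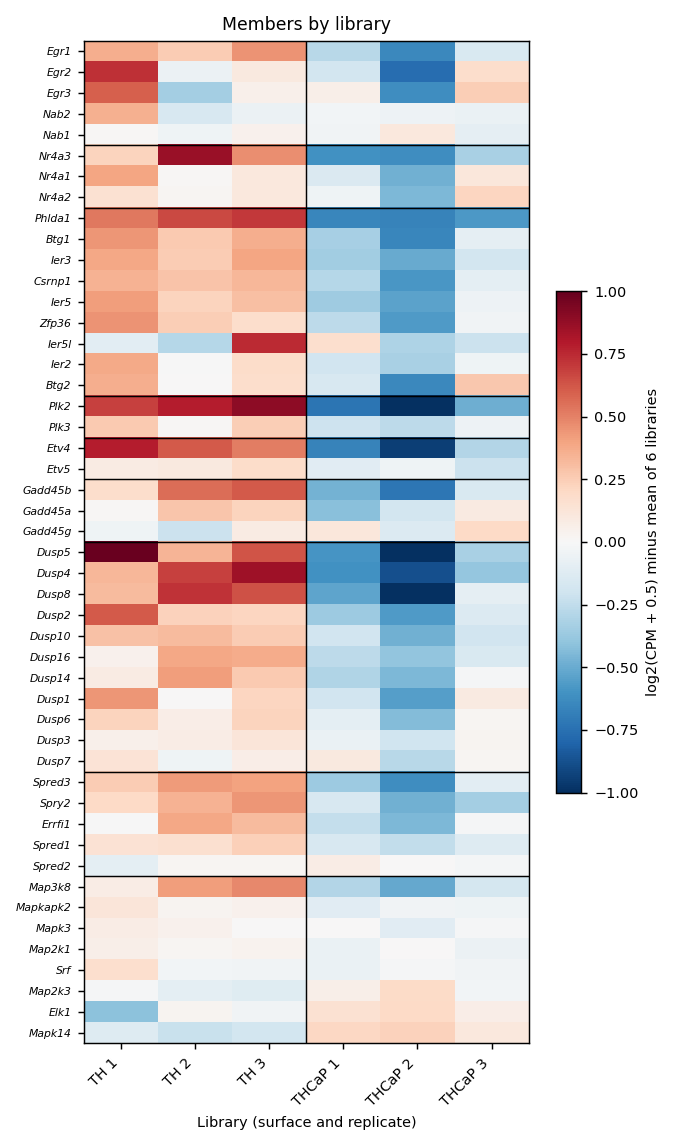
Each of the 48 tested members (rows, by family) in each library (columns), as log2(CPM + 0.5) minus its mean over 6 libraries, red above and blue below that mean, with the colour at its limit from 1 on. TH columns are mostly red, THCaP-2 is the deepest blue and THCaP-3 the palest, and the rows of Mapk3, Map2k1 and Mapkapk2 are near white.

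Features that did not choose the genes were compared without a test. Across the 48 members the log2 fold change had a Spearman correlation of 0.10 with gene length and 0.016 with GC content of the longest transcript. It was 0.18 with mean CPM and 0.27 with the number of exons of the transcript with most exons. Over all tested genes with values it was −0.058 with length, −0.046 with GC content and −0.023 with mean CPM. Exons were not counted over all genes. Members are not independent points, because they share libraries. The median number of exons was 4 in the 25 members that fell and 7 in the other 23, and the median gene length was 3072 and 3214 bases. In GENCODE vM21 the exons of 13 of the 50 members overlap those of another gene, on the opposite strand in 12. Among these are Dusp1 with Ergic1, Nab2 with Stat6, Plk3 with Tctex1d4 and Spred3 with Ggn. Phlda1, Dusp5 and Dusp8, called at least 2-fold lower, overlap the non-coding genes Gm28592, AC137853.2 and Gm32786 on the opposite strand. The sources used here do not say whether counting used strand, so the reads of such pairs cannot be told apart.

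Other genes of the pathway were read in the same fit. Of 11 AP-1 and Myc genes, 7 fell and the others were not called (median −0.57), beside the 12.0% of all genes that were lower. The largest falls at 5 CPM or more were in Myc (log2 fold change −1.36 with SE 0.25, edgeR adjusted p = 0.00795), the Fos relative Fosl1 (log2 fold change −1.11 with SE 0.11, edgeR adjusted p = 0.00131), the small Maf protein Maff (log2 fold change −0.95 with SE 0.12, edgeR adjusted p = 0.00315) and Junb (log2 fold change −0.78 with SE 0.11, edgeR adjusted p = 0.00369). Fos itself, named after its value was seen, averaged 501 ± 118 CPM on TH and 503 ± 114 CPM on THCaP (log2 fold change 0.0041 with SE 0.19, edgeR adjusted p = 0.99), with wide spread on both surfaces. Of 39 tested genes of the MAP kinase cascade outside the set, 5 fell and 1 rose (median −0.018). The share that fell was near the 12.0% over all tested genes, and the share that rose was below the 11.6% over all. The A20 partner Tnip1 (log2 fold change −0.69 with SE 0.09, edgeR adjusted p = 0.00281) and the atypical kinase Mapk6 (log2 fold change −0.40 with SE 0.09, edgeR adjusted p = 0.0159) fell. So did Tnip2, which binds and stabilises Map3k8 (log2 fold change −0.36 with SE 0.11, edgeR adjusted p = 0.0447), the Eif4e kinase Mknk2 (log2 fold change −0.33 with SE 0.07, edgeR adjusted p = 0.0133) and Mapk7 (log2 fold change −0.33 with SE 0.07, edgeR adjusted p = 0.0158). Map2k4, which activates JNK, rose (log2 fold change 0.29 with SE 0.08, edgeR adjusted p = 0.0318). Mapk7 and Map2k4 were named after their values were seen. Of 9 tested genes listed as Srf and ETS partners 3 fell and 1 rose, beside 12.0% lower and 11.6% higher over all tested genes. Those that fell were the ETS factors Etv3 (log2 fold change −0.84 with SE 0.13, edgeR adjusted p = 0.00454), Ets2 (log2 fold change −0.63 with SE 0.08, edgeR adjusted p = 0.00331) and Etv1 (log2 fold change −0.49 with SE 0.08, edgeR adjusted p = 0.00599). The 1 that rose was Tcf3 (log2 fold change 0.42 with SE 0.09, edgeR adjusted p = 0.0135). It encodes an E protein and does not belong with the ETS factors. Calls in these lists were not traced through the omission of single libraries.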

How the data were processed

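Counts per gene symbol were deposited by the authors as whole numbers, not normalised, and FPKM values were deposited beside them. Fastp, HISAT2, HTSeq and build mm10 are named, per the submitters' processing notes; versions, annotation and strand setting were not given in the sources used here. In 11923 genes (10 or more counts in some library), the deposited FPKM and count imply a gene length that is whole within 0.01 bases, so FPKM were used for levels per length and in alternatives only.

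In R 4.3.3, edgeR 4.0.16 (filterByExpr, minimum count 10 and total 15; TMM; robust quasi-likelihood F test) was fitted to all 11480 genes that passed, over 6 libraries with no covariate, with Benjamini-Hochberg adjustment over all of them. Genes were called at an adjusted p under 0.05. The SE is the absolute log2 fold change over the square root of F. The fitting code was tested on simulated data. Group values are mean ± SD, n = 3. Whether libraries on a surface were separate cultures is not stated in the labels, so p-values measure only the spread between these samples. An exact two-sided permutation test of 3 against 3 cannot go below 0.1.

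The members and gene lists were chosen with earlier results of these data known. Values in every library are printed for up to 4 called members of a family (at least 1 CPM, largest change) and up to 2 uncalled ones (most reads); of other lists, up to 4 called genes of at least 5 CPM. Alternatives were DESeq2 1.42.0, limma 3.58.1 (voom and log2 FPKM), other scalings and filters, a replicate block, each library left out, and, added after seeing the data, trends on GC content and length (mgcv 1.9.3) and a pair of libraries left out. Positions came from GENCODE vM21 (GRCm38) and promoters from RefSeq. A planned search of phosphatase proteins was not run.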

Additional observations from a re-analysis of the deposited data

How the results depend on the processing

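No called member changed direction in any alternative that tested it, and 11 of the 26 calls were kept in all 18 alternatives. The call of Nr4a3 was kept in the 15 that tested it, since filters left it out of 3. With each library left out in turn, 14 calls were kept. The number of members lower on THCaP, 25, was 21 to 28 with other scalings, tools and filters, among them 28 with DESeq2. It was 27 with each library's trend on GC content and gene length removed. Over all tested genes, 1719 were lower with DESeq2 and 1674 with these trends removed, in place of 1376. The number of members lower was 15 with limma on log2(FPKM + 1) and no filter, where 1259 genes were called in all. With single libraries left out the number of members lower ran from 15 to 32, the number higher from 0 to 1, and all calls from 756 to 4165, in place of 2709. The cause was not tested. With TH replicate 1 and THCaP replicate 3 both left out, 2 members were higher and 5207 genes were called. With the replicate number as a block, 30 members were lower, 1 was higher and 2881 genes were called. The numbers were not taken as pairs: deviations from the surface means correlated at −0.020, −0.072 and 0.060 between libraries of the same number, and not every library correlated best with its own number. Of the tested members, Ier5l, Nr4a3, Etv4 and Gadd45a rest on fewest reads, and for Spry1 and Spry4 no difference was detectable at this depth.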

Other observations

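Of 16 tested relatives of the members that were not in the set, 1 fell and 2 rose, shares near or below the 12.0% lower and 11.6% higher over all tested genes. The antiproliferative Btg3 fell (log2 fold change −0.53 with SE 0.15, edgeR adjusted p = 0.0344), as Btg1 did. The centriole kinase Plk4 rose (log2 fold change 0.41 with SE 0.11, edgeR adjusted p = 0.0296). So did Zfp36l2 (log2 fold change 0.28 with SE 0.08, edgeR adjusted p = 0.0336), an AU-rich element binder related to Zfp36. The third of these binders, Zfp36l1, averaged 211 ± 1.90 CPM on TH and 157 ± 38.1 CPM on THCaP and was not called (log2 fold change −0.43 with SE 0.15, edgeR adjusted p = 0.0632).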
